A study of Mus musculus with 18 samples.

Results

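The genes followed here are 37 genes of cholesterol and fatty acid synthesis and of its control, chosen by name among the 39179 genes in the count files. All 37 were among the 15006 genes with enough counts to be tested, 36 of them found by symbol and Msmo1, listed as Sc4mol, by its identifier. They comprise 7 genes of the steps up to farnesyl diphosphate, 11 of the sterol steps from the synthesis of squalene onward, 5 regulators, 4 genes of sterol transport, uptake and export, and 10 of fatty acid and lipid synthesis. In the 4 comparisons of doxycycline-treated with untreated cells, 3 of them, Fads2, Scd2 and Fdps, fell every time, by between 19.4 and 31.4%. Insig1 fell at 24 h and was not called at 48 h. How many of all genes fell every time was not counted. Comparisons of the same line share untreated libraries, and 3 of the 4 set what are read here as different runs against each other. Between the lines, Mylip and Insig2 were higher and Stard4, Fdps, Nsdhl, Lss and Acss2 were lower in APC-deleted cells untreated and at 48 h. In all 27.0 and 24.3% of the 37 genes were called in these comparisons, near or below the 27.3 and 34.7% of all genes. Calls of Fdps and Nsdhl untreated, and of Lss and Acss2 at both times, were lost without some single libraries.

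Cells were of MC38, a colon adenocarcinoma line from C57BL6 mice, kept with tetracycline-approved serum. Cells in which Apc, a tumour suppressor gene, was deleted (APC-deleted) and cells with Apc intact (APC-intact) were each taken without doxycycline and after 24 and 48 h of it at 1 µM, which gave 6 groups of 3 libraries. Doxycycline was used to switch on a hairpin against Tdo2, an enzyme of tryptophan breakdown. Titles name the hairpin for treated libraries alone, while the protocol has hairpin cells with and without the drug, and no treated group lacked it, so effects of hairpin and doxycycline cannot be told apart. How Apc was deleted, and whether the deleted line is a single clone, is not given in the sources used here. The libraries are called triplicates with no word on separate cultures, so the p-values reflect the spread among these libraries, and that spread may be technical.

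Cholesterol is built from acetyl-CoA by way of mevalonate, farnesyl diphosphate, squalene and lanosterol, and fatty acids start from the same acetyl-CoA. Both routes are under the SREBP transcription factors, made from Srebf1 and Srebf2, which the sterol sensor SCAP escorts out of the endoplasmic reticulum when sterols are scarce and which the INSIG proteins hold back when sterols are plentiful. Oxysterols that build up when sterols are plentiful act on the LXR receptors, whose known targets include Abca1, Apoe and Mylip, and dividing cells, colon tumour cells among them, draw on both routes for membranes.

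Gene counts per library ran from 71970499 to 111948430. Epithelial markers summed to 2.19 to 6.44 CPM (counts scaled to library size) per library, with 2 of 11 averaging over 1 CPM and Epcam and Cdx2 at or near 0, whereas 10 mesenchymal markers summed to 5628 to 7406 CPM. Markers of blood cells (6 genes), adipocytes (5) and hepatocytes (4) summed to at most 1.77, 7.86 and 0.041 CPM, and those of endothelium (4) to at most 5.96. Tdo2 lay between 0.062 and 0.31 CPM in all 18 libraries and was not called in any comparison. Its means untreated, at 24 h and at 48 h were 0.166, 0.108 and 0.107 CPM in APC-deleted and 0.228, 0.180 and 0.254 in APC-intact cells. Whether it was knocked down cannot be read from counts this low. Apc counts were lower in APC-deleted cells (log2 fold change −0.57 ± 0.12 (SE), adjusted p = 0.00241 by edgeR's quasi-likelihood test, untreated), but counts per gene do not show which exons were removed. APC-deleted replicate 2 at 48 h stood apart: 17 of the 37 genes lay over 0.2 on the log2 scale from the mean of the other 2 libraries of its group, against 0 to 9 in other libraries. APC-intact replicates 1 and 2 at 24 h each stood apart on a principal component over all genes, and replicate 2 had the 9. Over all genes 208 were higher and 638 lower at 24 h in APC-intact cells. Without replicate 1 these were 92 and 373, and without replicate 2 they were 510 and 740, with 10 of the 37 genes called. A designation in the file names, read here as 2 runs, puts untreated cells of both lines and APC-intact cells at 24 h in one run and the remaining groups in the other.

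Per length of transcript, on the RPKM scale the authors deposited, the desaturase Scd2 was the most abundant of the 37 genes, with a mean of 86.6 RPKM over the 18 libraries and a range of 65.9 to 109. Its paralogue Scd1 averaged 47.9 RPKM, the citrate lyase Acly 44.4, the farnesyl diphosphate synthase Fdps 41.4 and the desaturase Fads1 27.7. Srebf2 averaged 26.0 and Srebf1 12.1 RPKM, and Insig1 and Insig2 were close together at 18 and 16.3. At the low end were the isomerase Idi1 at 1.14, the sterol reductase Tm7sf2 at 0.532 and the acetyl-CoA synthetase Acss2 at 0.245 RPKM.

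**Figure D1:**
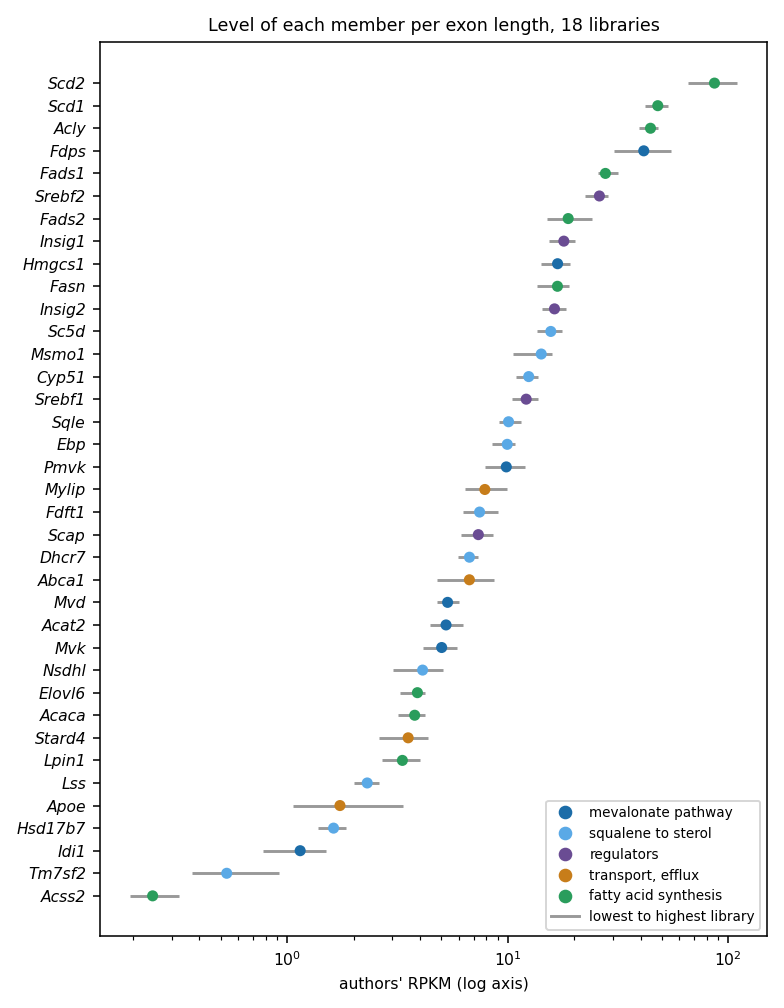
Levels of the 37 genes in RPKM, a scale per length of transcript, on a log axis; each point is the mean of the 18 libraries, each line spans the lowest to the highest library, colours give the role, and genes run from highest to lowest mean. Scd2 lies highest with a mean of 86.6 RPKM and Acss2 lowest at 0.245, and the range of a gene over libraries is narrow beside the span between genes.

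Promoter windows of 250 bases before to 50 after the start were taken from RefSeq (build GRCm38.p6) for the 30 of the 37 genes that the table holds, in 40 windows. Motifs were searched on both strands: the sterol regulatory element TCACNCCAC, the inverted CCAAT box ATTGG, the E-box CACGTG, the GC box GGGCGG and the LXR element, which is AGGTCA, any 4 bases and AGGTCA again. The first was in 1 of the 40 windows (2.5%), that of Hmgcs1, and in 1.24% of all 32851 windows. The CCAAT box was in 23 windows (57.5%), against 37.4% of all windows, the E-box in 7 (17.5%, against 7.15%) and the GC box in 28 (70.0%, against 35.7%). The LXR element was in 0 of the 40 and in 0.015% of all. A match is a run of letters and not a site shown to be used, and the windows of a gene with several starts can share sequence. Matches overlapped in the Fasn window only, where all were matches to the CCAAT box. Fdps, Fdft1, Sqle, Stard4, Scd1, Scd2 and Fads1 had no window. The windows of 4 genes are shown, with matches to any of these motifs on either strand in capitals. Hmgcs1 is shown as the window with a sterol regulatory element, whose first base lies 137 bases before the start. Fads2 is shown as a gene lower in all 4 doxycycline comparisons, Insig1 as the regulator lower at 24 h, and Mylip as the gene with the largest difference between the lines.
Hmgcs1 (chr13:119690101-119690400, plus strand): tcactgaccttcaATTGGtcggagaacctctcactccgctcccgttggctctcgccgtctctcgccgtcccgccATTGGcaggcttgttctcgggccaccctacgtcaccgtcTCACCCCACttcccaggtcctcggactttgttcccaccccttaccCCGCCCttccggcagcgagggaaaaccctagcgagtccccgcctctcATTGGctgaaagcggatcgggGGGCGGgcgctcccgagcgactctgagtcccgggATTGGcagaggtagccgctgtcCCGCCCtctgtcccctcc
Fads2 (chr19:10101454-10101753, minus strand): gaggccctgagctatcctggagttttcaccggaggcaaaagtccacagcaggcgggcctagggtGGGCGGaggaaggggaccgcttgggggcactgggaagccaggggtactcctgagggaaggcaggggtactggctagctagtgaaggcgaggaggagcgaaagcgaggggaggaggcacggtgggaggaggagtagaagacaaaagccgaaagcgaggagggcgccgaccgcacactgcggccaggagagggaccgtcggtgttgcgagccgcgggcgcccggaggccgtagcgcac
Insig1 (chr5:28071162-28071461, plus strand): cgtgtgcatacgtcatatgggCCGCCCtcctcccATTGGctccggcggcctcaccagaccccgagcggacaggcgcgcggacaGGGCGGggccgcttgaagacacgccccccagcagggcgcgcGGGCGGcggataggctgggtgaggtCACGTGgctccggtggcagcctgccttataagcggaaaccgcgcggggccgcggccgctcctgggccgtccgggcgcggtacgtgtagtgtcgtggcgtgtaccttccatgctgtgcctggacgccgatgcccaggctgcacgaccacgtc
Mylip (chr13:45389492-45389791, plus strand): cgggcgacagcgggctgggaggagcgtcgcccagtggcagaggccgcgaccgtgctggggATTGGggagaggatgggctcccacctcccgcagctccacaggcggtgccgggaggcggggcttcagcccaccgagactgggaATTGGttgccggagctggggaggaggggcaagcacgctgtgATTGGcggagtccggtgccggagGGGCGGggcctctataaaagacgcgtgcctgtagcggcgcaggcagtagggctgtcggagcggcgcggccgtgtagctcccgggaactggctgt

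The first question was what doxycycline did to these genes within each line. At 24 h in APC-intact cells 10 of the 37 genes were lower and 0 higher (adjusted p below 0.05 by edgeR over all tested genes), where 5.64% of all genes were called, 4.25% as lower and 1.39% as higher. At 48 h in APC-intact cells 10 were lower and 0 higher, against 11.3% called among all genes, 7.54% as lower and 3.81% as higher. In APC-deleted cells 5 were lower and 0 higher at 24 h, against 5.85% called (3.77% lower, 2.08% higher), and 11 were lower and 1 higher at 48 h, against 11% called (6.49% lower, 4.52% higher). The median log2 fold change of the 37 genes was −0.13 and −0.10 at 24 and 48 h in APC-intact cells and −0.11 and −0.10 in APC-deleted cells, against −0.0043, 0.00050, −0.0020 and −0.0011 over all tested genes. Over all 9 comparisons 23 of the 37 genes were called at least once and 14 in none. The same count was not made over all genes, of which the comparisons of the lines alone called 27.3% untreated and 34.7% at 48 h. The 24 and 48 h comparisons of a line share its untreated libraries and are not independent. RNA was taken from whole cultures, so fewer cells that make a transcript and less of it per cell cannot be told apart.

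**Figure D2:**
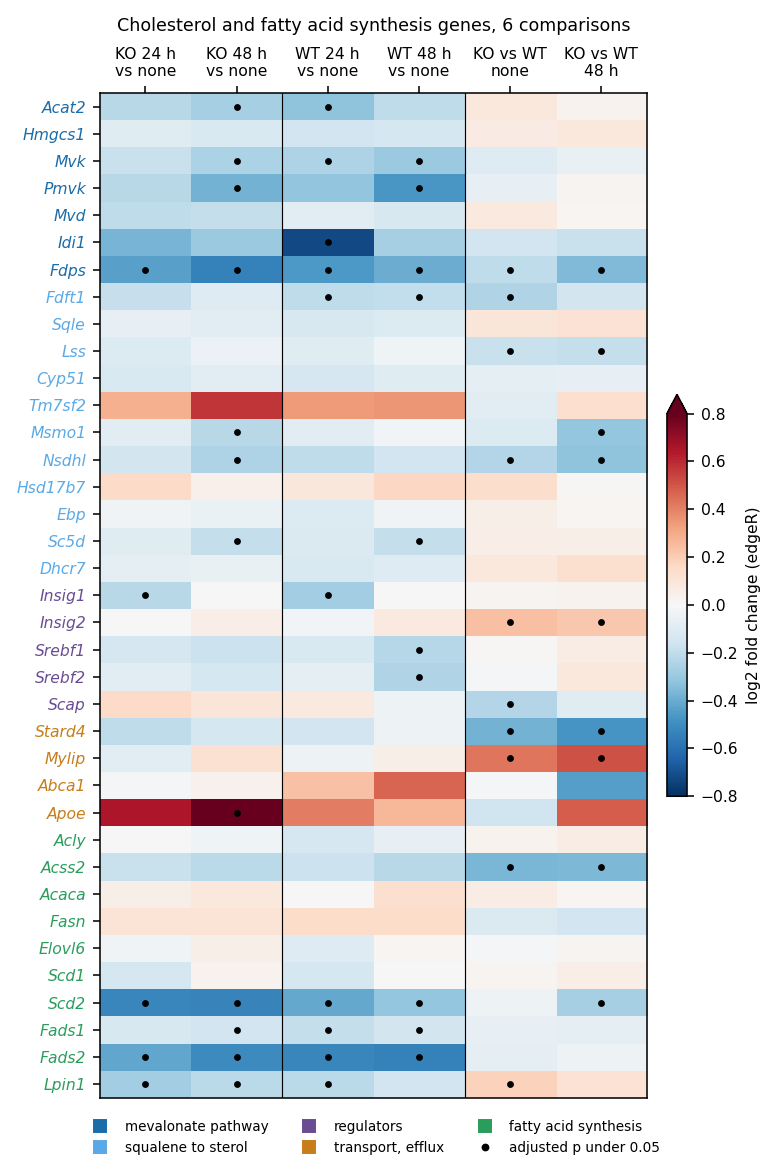
Log2 fold changes of the 37 genes in rows, by role, in the comparisons in columns, each the first-named group over the second; a dot marks adjusted p below 0.05 (edgeR, n = 3 per group). Fads2, Scd2 and Fdps are marked as lower in all 4 doxycycline columns, and Mylip as higher in both columns that set the lines against each other.

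Of the 10 fatty acid and lipid genes, 3 and 4 were lower at 24 and 48 h in APC-deleted cells and 4 and 3 in APC-intact cells, with none higher. These were 30 and 40%, against 3.77 and 6.49% of all genes, and 40 and 30%, against 4.25 and 7.54%. Fads2, the delta-6 desaturase of polyunsaturated fatty acid synthesis, had 45.2, 46.4 and 43.0 CPM in untreated APC-deleted cells, 33.8, 34.0 and 33.1 at 24 h and 30.3, 34.1 and 30.4 at 48 h. In APC-intact cells it had 47.0, 47.4 and 47.4 CPM untreated, 31.5, 34.4 and 33.0 at 24 h and 30.8, 33.8 and 32.8 at 48 h. Every treated library of either line lay below every untreated one. The log2 fold changes were −0.42 ± 0.055 at 24 h and −0.51 ± 0.055 at 48 h in APC-deleted cells (adjusted p = 9.71e-05 and 6.97e-06) and −0.52 ± 0.055 and −0.54 ± 0.055 in APC-intact cells (1.37e-05 and 1.52e-06), so that it fell by 25.1, 29.7, 30.2 and 31.3%. The neighbouring desaturase Fads1, which acts at the delta-5 position, had 132, 134 and 131 CPM in untreated APC-deleted cells, 122, 122 and 119 at 24 h and 119, 118 and 119 at 48 h. In APC-intact cells Fads1 had 144, 137 and 135, 119, 123 and 123 and 125, 125 and 126 CPM at these times. Its treated libraries were again all below its untreated ones, by a smaller step than for Fads2. Log2 fold changes were −0.19 ± 0.040, adjusted p = 0.00712 at 24 h and −0.14 ± 0.040, adjusted p = 0.0254 at 48 h in APC-intact cells, and −0.13 ± 0.040, adjusted p = 0.0609 and −0.16 ± 0.040, adjusted p = 0.0161 in APC-deleted cells. The calls of Fads1 ended without 1 or more single libraries: untreated replicate 1 at 24 h (adjusted p = 0.0958) and 5 libraries at 48 h, replicates 1 and 2 untreated and all 3 treated (up to 0.148), in APC-intact cells, and untreated replicate 1 or 2 at 48 h in APC-deleted cells (up to 0.0644).

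Scd2, a stearoyl-CoA desaturase that puts the double bond of oleic acid into saturated chains, had 741, 739.9 and 756 CPM in untreated APC-deleted cells, 520.3, 526 and 515 at 24 h and 522, 475 and 545 at 48 h. With Apc intact it had 776, 735 and 785 CPM untreated, 565, 549 and 613 at 24 h and 611, 625 and 614 at 48 h. Treated and untreated libraries did not overlap in either line. Log2 fold changes were −0.52 ± 0.052 and −0.54 ± 0.052 at 24 and 48 h in APC-deleted cells (adjusted p = 6.29e-06 and 2.39e-06) and −0.41 ± 0.052 and −0.31 ± 0.052 in APC-intact cells (8.14e-05 and 0.000585). Scd1, the paralogue with the same activity, had 317 ± 8.29, 288 ± 3.59 and 323 ± 32.4 CPM (mean ± SD, n = 3 each) untreated, at 24 h and at 48 h in APC-deleted cells. APC-intact cells had 312 ± 9.91, 283 ± 15.0 and 312 ± 7.84 CPM at the same times. Scd1 was not called in any of the 4 comparisons, and at 48 h its log2 fold change was 0.029 in APC-deleted cells (95% interval −0.096 to 0.15) and −0.0034 in APC-intact cells (−0.13 to 0.12). Scd2 and Scd1 match at 95.5% of bases over 623 bases of transcript, where reads may be shared.

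Ratios of counts within a library do not depend on scaling between libraries. The Scd2 to Scd1 ratio was 2.35 ± 0.0739 untreated, 1.81 ± 0.0413 at 24 h and 1.59 ± 0.0780 at 48 h in APC-deleted cells (mean ± SD, n = 3 each). In APC-intact cells it was 2.45 ± 0.0385, 2.03 ± 0.0941 and 1.98 ± 0.0736. The Fads2 to Fads1 ratio was 0.340 ± 0.00923, 0.279 ± 0.00166 and 0.266 ± 0.0207 in APC-deleted cells and 0.341 ± 0.0134, 0.271 ± 0.00772 and 0.259 ± 0.0113 in APC-intact cells. In each line and at each time the 3 treated ratios of both pairs lay below the 3 untreated ones, and the 2-sided exact permutation p was 0.1, the smallest that 3 against 3 libraries can give.

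**Figure D3:**
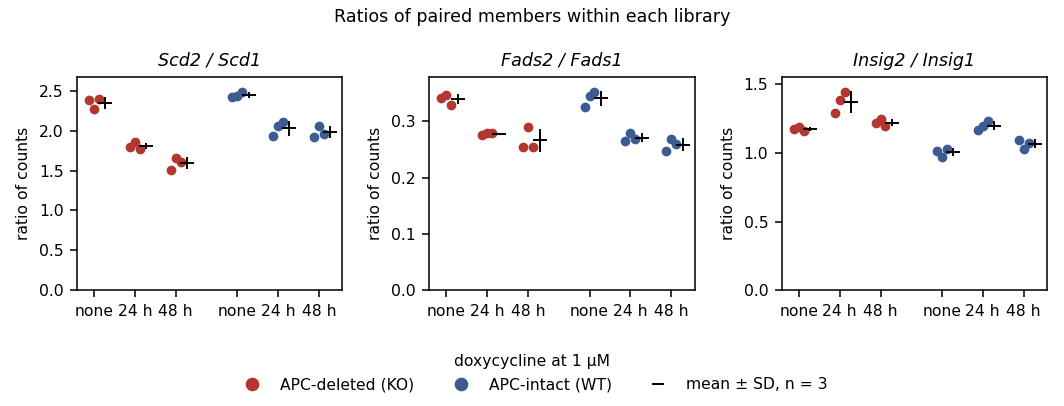
Ratios of counts of paralogues in each library, for Scd2 over Scd1, Fads2 over Fads1 and Insig2 over Insig1, by line and by time of doxycycline; points are libraries and bars the mean ± SD of 3. The Scd2 to Scd1 ratio averages 2.35 untreated and 1.59 at 48 h in APC-deleted cells, and the Insig2 to Insig1 ratio is highest at 24 h in both lines.

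Lpin1, a phosphatidate phosphatase of glycerolipid synthesis, had 29.1, 29.9 and 29.3 CPM in untreated APC-deleted cells, 23.3, 25.1 and 24.3 at 24 h and 25.4, 24.6 and 25.8 at 48 h. In APC-intact cells Lpin1 had 27.3, 24.8 and 25.7, 24.3, 20.2 and 22.5 and 23.4, 23.9 and 22.6 CPM at these times, and treated libraries lay below untreated ones in both lines. It fell at 24 h (−0.28 ± 0.061, adjusted p = 0.00902) and 48 h (−0.22 ± 0.061, adjusted p = 0.0259) in APC-deleted cells and, in APC-intact cells, at 24 h (−0.21 ± 0.061, adjusted p = 0.0449). The 24 h fall in APC-deleted cells was lost without treated replicate 1 (adjusted p = 0.0525), that at 48 h without any 1 untreated library (up to 0.0868), and the APC-intact one without any of 5 libraries, all but treated replicate 1 (up to 0.255). Acly, which makes cytosolic acetyl-CoA, the carboxylase Acaca, the fatty acid synthase Fasn, the elongase Elovl6 and Acss2 were not called in any of the 4 comparisons. Fasn, the synthase itself, had log2 fold changes of 0.11 to 0.15, and its treated and untreated libraries overlapped each time.

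Among the steps up to farnesyl diphosphate, Fdps, which makes that branch point of sterol and isoprenoid synthesis, had 72.2, 76.0 and 80.5 CPM in untreated APC-deleted cells, 56.8, 57.5 and 54.9 at 24 h and 50.3, 50.8 and 55.9 at 48 h. The APC-intact libraries had 85.6, 89.2 and 89.0 CPM untreated, 58.6, 70.9 and 62.6 at 24 h and 62.7, 71.8 and 65.9 at 48 h. All treated libraries were below all untreated ones in both lines. The log2 fold changes were −0.43 ± 0.067 and −0.54 ± 0.067 at 24 and 48 h in APC-deleted cells (adjusted p = 0.00049 and 3.46e-05) and −0.46 ± 0.067 and −0.40 ± 0.067 in APC-intact cells (0.000279 and 0.000598).

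Of the 7 genes of these steps, Fdps among them, 1 and 4 were lower at 24 and 48 h in APC-deleted cells and 4 and 3 in APC-intact cells, with none higher. These were 14.3 and 57.1%, against 3.77 and 6.49% of all genes, and 57.1 and 42.9%, against 4.25 and 7.54%. The phosphomevalonate kinase Pmvk fell at 48 h in both lines, to 16.1, 18.6 and 16.8 CPM in APC-deleted cells, against 22.5, 21.5 and 23.0 untreated (−0.38 ± 0.093, adjusted p = 0.012). With Apc intact it fell to 15.9, 16.9 and 18.01 CPM at 48 h, against 23.8, 23.3 and 23.0 untreated (−0.47 ± 0.093, adjusted p = 0.00263). The groups did not overlap in either line. Its fall in APC-deleted cells was lost without treated replicate 1 (adjusted p = 0.0502). The mevalonate kinase Mvk fell in 3 of the 4 comparisons, by 15.8 and 18.7% at 24 and 48 h in APC-intact cells and by 16.0% at 48 h in APC-deleted cells, and treated and untreated libraries did not overlap in any of the 4. With single libraries left out, Mvk lost its call at 48 h in APC-intact cells without untreated replicate 2 (adjusted p = 0.0513). It lost it without any of 5 libraries, all but treated replicate 2, at 24 h in that line (up to 0.200) and without untreated replicate 1 or 2 or treated replicate 1 or 3 in APC-deleted cells (up to 0.136).

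Idi1, the isomerase of the isoprenoid building block, had 3.55, 4.27 and 4.32 CPM at 24 h in APC-intact cells, against 6.82, 6.67 and 6.53 untreated (−0.72 ± 0.16, adjusted p = 0.01), the largest change of any of the 37 genes at that time. In APC-deleted cells it had 4.93, 4.41 and 4.56 at 24 h, against 4.51, 6.89 and 6.62 untreated (−0.37 ± 0.16, adjusted p = 0.189), where untreated replicate 1 lay within the treated range. The fall of Idi1 was lost without APC-intact replicate 1 at 24 h (adjusted p = 0.0638), its transcript is shared in part with processed copies elsewhere in the genome, and its counts are low. Acat2, which joins the first acetyl-CoA units in the cytosol, fell at 24 h in APC-intact cells, to 15.0, 15.8 and 14.9 CPM, against 19.2, 20.9 and 17.2 untreated (−0.32 ± 0.075, adjusted p = 0.0123). It also fell at 48 h in APC-deleted cells, to 15.9, 17.3 and 17.5 CPM, against 20.0, 19.8 and 20.96 untreated (−0.26 ± 0.074, adjusted p = 0.0275). These calls ended without untreated replicate 1 or 2 or treated replicate 1 in APC-intact cells (up to 0.136), and without any untreated library or treated replicate 1 in APC-deleted cells (up to 0.0953). Acat2 also shares long stretches with Acat3 and overlaps in sequence with Tcp1. Hmgcs1, the synthase that makes HMG-CoA and the gene with the sterol regulatory element in its window, had log2 fold changes of −0.15 to −0.098, and Mvd, the decarboxylase, of −0.21 to −0.092, with no call for either.

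Of the 11 sterol genes, 0 and 3 were lower at 24 and 48 h in APC-deleted cells and 1 and 2 in APC-intact cells, with none higher. These were 0 and 27.3%, against 3.77 and 6.49% of all genes, and 9.09 and 18.2%, against 4.25 and 7.54%. Counts this small cannot tell the sterol genes from all genes. Fdft1, the squalene synthase, had 31.8, 33.7 and 33.3 CPM in untreated APC-intact cells, 28.2, 29.8 and 27.7 at 24 h and 28.4, 29.9 and 27.9 at 48 h. It fell at both times (−0.21 ± 0.058, adjusted p = 0.0425 and −0.20 ± 0.058, adjusted p = 0.0342), calls lost without any of 5 libraries at each time, all but replicate 2 of the treated group (up to 0.242 and 0.147). Sc5d, the sterol C5 desaturase, was lower at 48 h in APC-deleted (−0.19 ± 0.060, adjusted p = 0.0425) and APC-intact cells (−0.19 ± 0.060, adjusted p = 0.0456), and Nsdhl and Msmo1, which strip methyl groups from lanosterol products, were lower at 48 h in APC-deleted cells (−0.24 and −0.22, adjusted p = 0.0454 and 0.044). Of these, Nsdhl, Msmo1 and Sc5d in APC-deleted cells lost their calls without replicate 2 at 48 h, the library that stands apart, or without any 1 untreated library, Nsdhl and Sc5d also without replicate 3 at 48 h (up to 0.137, 0.136 and 0.127), and Sc5d in APC-intact cells without any of the 6 libraries (up to 0.173). Sqle, Lss, Cyp51, Ebp, Dhcr7 and Hsd17b7, enzymes from squalene epoxidation to the last double bonds, were not called, with log2 fold changes between −0.13 and 0.17. Tm7sf2, a sterol reductase at 1.70 to 4.22 CPM, was above its untreated libraries in every treated library of each line (0.28 to 0.57) without a call, and it overlaps Vps51 on the same strand. Use of strand in counting is not given in the sources used here, so Fdft1, Cyp51, Srebf1, Acss2 and Tm7sf2, which overlap other tested genes, are uncertain.

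Among the regulators Insig1, itself a known target of the factors it restrains, was lower at 24 h and not at 48 h. In APC-deleted cells it had 62.6, 69.8 and 71.7 CPM untreated, 62.9, 55.6 and 56.6 at 24 h and 70.2, 62.9 and 70.7 at 48 h. Insig1 in APC-intact cells had 66.9, 68.9 and 65.4 CPM untreated, 55.5, 55.8 and 54.96 at 24 h and 65.8, 65.8 and 68.7 at 48 h. The 24 h libraries of APC-intact cells lay below all others of that line, while in APC-deleted cells 24 h replicate 1 lay just above the lowest untreated library. The log2 fold change at 24 h was −0.22 ± 0.060, adjusted p = 0.0335 where Apc was deleted and −0.28 ± 0.060, adjusted p = 0.00849 where it was intact, and at 48 h it was −0.0012 (95% interval −0.13 to 0.12) and −0.0062 (−0.13 to 0.12). The 24 h call was lost in APC-deleted cells without untreated replicate 2 or 3 or treated replicate 2 or 3 (adjusted p up to 0.161) and in APC-intact cells without untreated replicate 2 (0.0686). Insig2, which acts like Insig1, was not called with doxycycline (log2 fold changes −0.021 to 0.079). The Insig2 to Insig1 ratio was 1.17 ± 0.0122 untreated, 1.37 ± 0.0789 at 24 h and 1.22 ± 0.0256 at 48 h in APC-deleted cells, and 1.01 ± 0.0301, 1.20 ± 0.0315 and 1.07 ± 0.0326 in APC-intact cells (mean ± SD, n = 3), with the 24 h ratios above the untreated ones in both (exact permutation p = 0.1).

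Srebf1 and Srebf2, which encode the transcription factors, were lower at 48 h in APC-intact cells. Srebf2 had 155, 159 and 149.5 CPM at 48 h, against 186, 178 and 185 untreated (−0.24 ± 0.062, adjusted p = 0.0159), and Srebf1 had 82.5, 86.7 and 78.7, against 96.7, 95.1 and 98.2 (−0.23 ± 0.066, adjusted p = 0.0331). The groups did not overlap for either gene. In APC-deleted cells at 48 h the changes were −0.14 ± 0.062, adjusted p = 0.156 for Srebf2 and −0.17 ± 0.066, adjusted p = 0.101 for Srebf1. For both genes replicate 2 lay within the untreated range, Srebf2 at 160.5, 181 and 149.9 CPM and Srebf1 at 81.6, 97.9 and 79.3. The call of Srebf2 was lost without untreated replicate 1 or 48 h replicate 1 or 3 (up to 0.0783), and that of Srebf1 without any of 5 libraries, all but 48 h replicate 2 (up to 0.145). Scap was not called with doxycycline in either line (log2 fold changes −0.043 to 0.15).

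Of the 4 transport genes, Apoe, the secreted lipid carrier, was the 1 member called as higher. It had 2.73, 3.26 and 3.73 CPM in untreated APC-deleted cells, 4.96, 5.00 and 5.27 at 24 h and 4.51, 8.73 and 5.03 at 48 h (0.91 ± 0.20, adjusted p = 0.00576 at 48 h and 0.65 ± 0.20, adjusted p = 0.0588 at 24 h). In APC-intact cells it had 3.33, 3.55 and 3.96, 4.40, 5.96 and 4.08 and 4.28, 4.73 and 4.03 CPM at the same times, with no call (0.41 at 24 h and 0.27 at 48 h). All treated libraries of each line were above all untreated ones, and the 8.73 CPM of APC-deleted replicate 2 at 48 h was the highest of all. Without that library the 48 h change was 0.56 ± 0.15 (adjusted p = 0.0114). Abca1, the cholesterol exporter, Mylip, an E3 ligase that degrades lipoprotein receptors, and Stard4, a sterol carrier between membranes, were not called with doxycycline, and Abca1 had its largest change at 48 h in APC-intact cells (0.47 ± 0.18, adjusted p = 0.105).

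**Figure D4:**
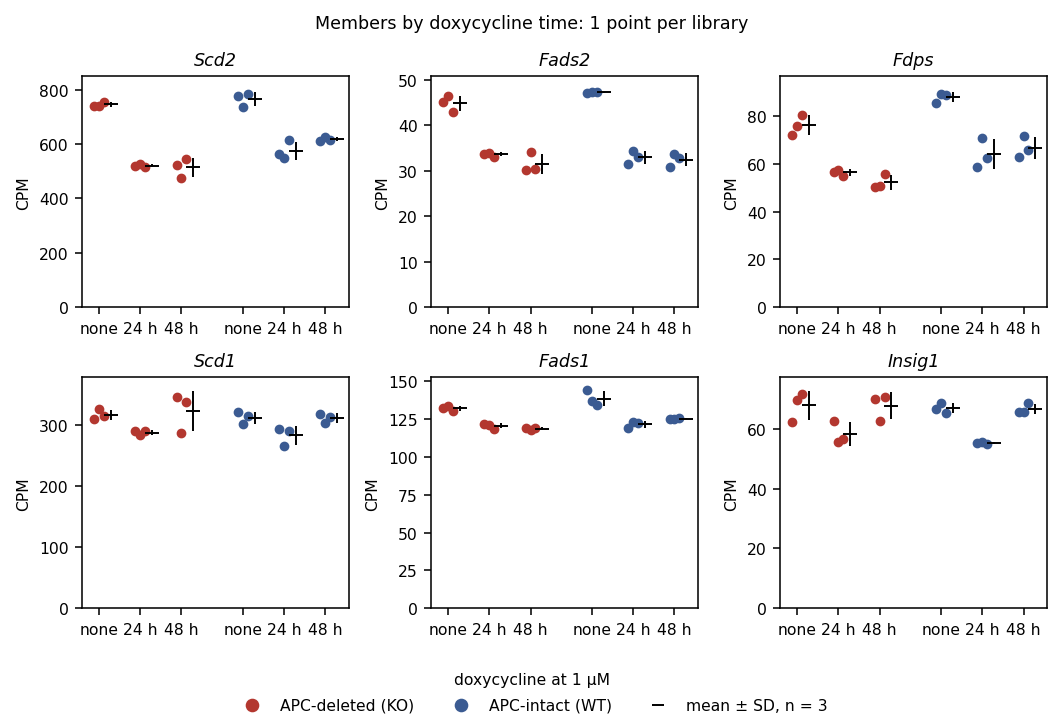
CPM of single libraries, with mean ± SD bars (n = 3), for genes followed through doxycycline treatment in APC-deleted and APC-intact cells at none, 24 and 48 h. Fads2, Scd2 and Fdps are below their untreated libraries at both times, Scd1 overlaps them at 48 h, and Insig1 is low at 24 h and near its untreated level at 48 h.

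The 24 h comparison in APC-intact cells lies within 1 run, and the other 3 doxycycline comparisons set 1 run against the other. With a term for the run, in a model where the lines share 1 response, Fads2, Scd2 and Fdps remained lower at 48 h (−0.61 ± 0.076, −0.43 ± 0.089 and −0.57 ± 0.099, adjusted p = 0.000149, 0.0106 and 0.00256), as did Fads1 (−0.21 ± 0.056, adjusted p = 0.0461). The other 48 h calls were lost in both lines. That left 4 of 10 in APC-intact and 4 of 12 in APC-deleted cells. Those lost with a fold at least as large as without the term, and a larger SE, were Pmvk (−0.48, adjusted p = 0.0574), Acat2 (−0.37, 0.0697), Mvk (−0.32, 0.102), Nsdhl (−0.30, 0.169), Sc5d (−0.21, 0.218) and Msmo1 (−0.23, 0.314). Those lost with a smaller fold were Apoe (0.68, adjusted p = 0.297), Lpin1 (−0.15, 0.420), Srebf1 (−0.16, 0.434), Srebf2 (−0.13, 0.514) and Fdft1 (−0.12, 0.518). At 24 h the same model gave −0.51 ± 0.051 for Fads2, −0.47 ± 0.059 for Scd2, −0.49 ± 0.066 for Fdps and −0.27 ± 0.055 for Insig1 (adjusted p = 4.09e-06, 5.05e-05, 7.87e-05 and 0.00404). In fits limited to the groups being compared, calls were lost at 48 h in APC-deleted cells for Apoe (adjusted p = 0.0774), Fads1 (0.150), Lpin1 and Acat2 (0.0862 each), Sc5d (0.185), Mvk (0.187), Nsdhl (0.198) and Msmo1 (0.212). At 24 h in APC-intact cells that fit lost Acat2 (adjusted p = 0.0920), Mvk (0.142), Fads1 (0.143), Fdft1 (0.158) and Lpin1 (0.260).

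Summed levels of cell type markers were lower in treated libraries for 3 of the lists. Mesenchymal markers summed to 6830.0 to 7406 CPM per library untreated, 5804 to 6169 at 24 h and 6197 to 6302 at 48 h in APC-deleted cells, and to 6215 to 6691, 5628 to 5859 and 5711 to 5823 in APC-intact cells. Col3a1, a fibrillar collagen among them, had 1455, 1169 and 1325 CPM untreated, 855, 841 and 842 at 24 h and 784, 777 and 794 at 48 h in APC-deleted cells. In APC-intact cells it had 1088, 1064 and 1027, 676, 766 and 749.9 and 648, 667 and 664 CPM. Col3a1 fell in all 4 comparisons (log2 fold changes −0.75 to −0.54). Vim, Col1a1, Col1a2, Pdgfra and Pdgfrb also had lower means in every treated group, but Fn1, Zeb1 and Zeb2 had higher ones. Zeb1 averaged 54.7, 63.4 and 63.2 CPM untreated, at 24 h and at 48 h in APC-deleted cells and 58.8, 68.0 and 70.2 in APC-intact cells. Epithelial markers summed to 5.88 to 6.44, 4.03 to 4.43 and 4.12 to 4.97 CPM in APC-deleted cells and to 3.73 to 4.86, 2.19 to 3.28 and 3.41 to 3.88 in APC-intact cells at these times. Adipocyte markers summed to 2.64 to 2.98, 2.22 to 2.52 and 1.71 to 2.25 CPM in APC-deleted cells and to 7.57 to 7.86, 5.15 to 6.12 and 4.19 to 5.31 in APC-intact cells. The adipocyte sum was nearly all Fabp4. Among epithelial markers Krt8 and Cldn4 had lower means in every treated group, and Cdh1 had higher ones at 48 h in both lines. Treated and untreated sums did not overlap, except for epithelial markers at 48 h in APC-intact cells. Reads in no annotated gene took 5.43 and 5.67% of the total at 24 and 48 h in APC-deleted cells against 4.81% untreated, and 6.21 and 6.59% in APC-intact cells against 5.56% untreated, and the part of these reads and of the markers in these results was not tested.

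The second question was how the lines differ. Without doxycycline 3 of the 37 genes were higher and 7 lower in APC-deleted than in APC-intact cells, and at 48 h 2 were higher and 7 lower. The shares called over all genes were 27.3% (13.4% higher, 13.8% lower) and 34.7% (17.8% higher, 16.8% lower), so 10 and 9 of 37 (27.0 and 24.3%) are near or below the background. Untreated, marker sums were 5.88 to 6.44 CPM in APC-deleted cells against 3.73 to 4.86 in APC-intact cells for epithelium and 6830.0 to 7406 against 6215 to 6691 for mesenchyme. They were 2.71 to 3.73 against 5.12 to 5.96 for endothelium, 2.64 to 2.98 against 7.57 to 7.86 for adipocytes and 0.529 to 0.658 against 1.43 to 1.77 for blood cells. Most of the endothelial sum was Cdh5 (mean 2.42 against 4.78 CPM), while Pecam1 had 0.758 against 0.720. Nearly all of the adipocyte sum was Fabp4 (2.70 against 7.68 CPM), and most of the blood-cell sum was Lyz2 (0.541 against 1.57 CPM). Of the epithelial markers, Krt8 (3.83 against 1.93 CPM), Cdh1, Krt18 and Cldn7 had higher means in APC-deleted cells. Cldn4, Krt19, Krt20, Vil1 and Cldn3 had lower ones. Among mesenchymal markers Col1a1, Col3a1, Fn1, Pdgfra and Pdgfrb had higher means in APC-deleted cells and Vim, Col1a2, Zeb1 and Zeb2 lower ones. The part of these markers in the line differences was not tested. The members' median log2 fold change was −0.018 untreated and 0.015 at 48 h, against −0.0044 and −0.00046 over all genes.

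Mylip was the member most different between the lines. It had 37.0, 34.0 and 37.9 CPM in untreated APC-deleted cells, against 28.5, 26.0 and 26.3 in APC-intact cells (0.43 ± 0.053, adjusted p = 3.70e-06). At 48 h it had 40.0, 40.2 and 38.3, against 28.4, 26.7 and 28.2 (0.51 ± 0.053, adjusted p = 3.35e-07). Every APC-deleted library lay above every APC-intact one. Insig2 was also higher, at 73.5, 82.7 and 83.3 CPM in untreated APC-deleted cells, against 68.0, 67.0 and 67.3 in APC-intact cells (0.24 ± 0.054, adjusted p = 0.0019), and at 85.4, 78.3 and 84.6 against 72.2, 67.9 and 73.6 CPM at 48 h (0.22 ± 0.054, adjusted p = 0.00357). Lpin1 was called as higher without doxycycline (0.18 ± 0.061, adjusted p = 0.0316), a call lost without any of 5 of the 6 libraries, all but APC-intact replicate 1 (up to 0.10), and was 0.12 ± 0.061, adjusted p = 0.15 at 48 h.

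Stard4 had 24.1, 23.4 and 24.6 CPM in untreated APC-deleted cells, against 31.1, 31.8 and 30.8 in APC-intact cells (−0.38 ± 0.076, adjusted p = 0.000862), and 23.5, 19.2 and 22.7 against 29.7, 30.5 and 30.7 CPM at 48 h (−0.47 ± 0.076, adjusted p = 6.68e-05). The lines did not overlap at either time. The gene lies on chromosome 18, 1007062 bases from Apc with 3 tested genes between them. Of 385 tested genes of that chromosome, 131 were lower and 20 higher untreated, and 152 lower and 22 higher at 48 h, with median log2 fold changes of −0.17 and −0.19.

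Synthesis genes lower in APC-deleted cells at both times were Fdps, Lss, Nsdhl and Acss2. Fdps had 76.2 ± 4.16 CPM in APC-deleted cells, against 87.9 ± 1.99 in APC-intact cells, untreated (−0.21 ± 0.067, adjusted p = 0.0267), and 52.3 ± 3.09 against 66.8 ± 4.62 at 48 h (−0.35 ± 0.067, adjusted p = 0.000384). Lss, the lanosterol synthase, had 31.8, 32.01 and 31.6 CPM in untreated APC-deleted cells, against 36.3, 35.4 and 36.4 in APC-intact cells (−0.18 ± 0.054, adjusted p = 0.0176), and 29.1, 31.4 and 31.8 against 33.9, 36.9 and 34.8 CPM at 48 h (−0.19 ± 0.054, adjusted p = 0.00898). The sterol dehydrogenase Nsdhl had 15.3, 15.9 and 15.2 CPM in untreated APC-deleted cells, against 18.6, 19.0 and 16.9 in APC-intact cells (−0.23 ± 0.076, adjusted p = 0.027) and 14.4, 11.3 and 13.4 against 16.8, 16.5 and 15.8 at 48 h (−0.32 ± 0.076, adjusted p = 0.00247). For Fdps, Lss and Nsdhl the libraries of the lines did not overlap at either time. Acss2, which makes acetyl-CoA from acetate, had 3.08, 3.31 and 3.04 CPM in untreated APC-deleted cells, against 3.66, 4.13 and 4.34 in APC-intact cells (−0.36 ± 0.11, adjusted p = 0.0189), and 2.78, 2.60 and 2.73 against 3.66, 3.30 and 3.46 at 48 h (−0.36 ± 0.11, adjusted p = 0.0171).

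Other genes were called at 1 of the times. Fdft1 was lower in untreated APC-deleted cells, at 27.5, 27.6 and 28.5 CPM, against 31.8, 33.7 and 33.3 in APC-intact cells (−0.24 ± 0.058, adjusted p = 0.00383), and was −0.15 ± 0.059, adjusted p = 0.0585 at 48 h. The sterol oxidase Msmo1 was lower at 48 h, at 106, 85.5 and 107 CPM in APC-deleted cells, against 121, 126 and 123 in APC-intact cells (−0.31 ± 0.069, adjusted p = 0.00155), and was −0.11 ± 0.068, adjusted p = 0.253 untreated. Scd2 was lower at 48 h (−0.26 ± 0.052, adjusted p = 0.00058), with no overlap between the lines, and was −0.038 ± 0.052, adjusted p = 0.655 untreated. Scap was lower untreated, at 47.5, 45.1 and 41.8 CPM in APC-deleted cells, against 53.4, 52.7 and 52.1 in APC-intact cells (−0.24 ± 0.071, adjusted p = 0.0172). The lines overlapped for Scap at 48 h, at 44.6, 54.6 and 44.5 CPM in APC-deleted cells, where replicate 2 was highest, against 49.6, 55.4 and 48.5 in APC-intact cells (−0.096 ± 0.071, adjusted p = 0.322).

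**Figure D5:**
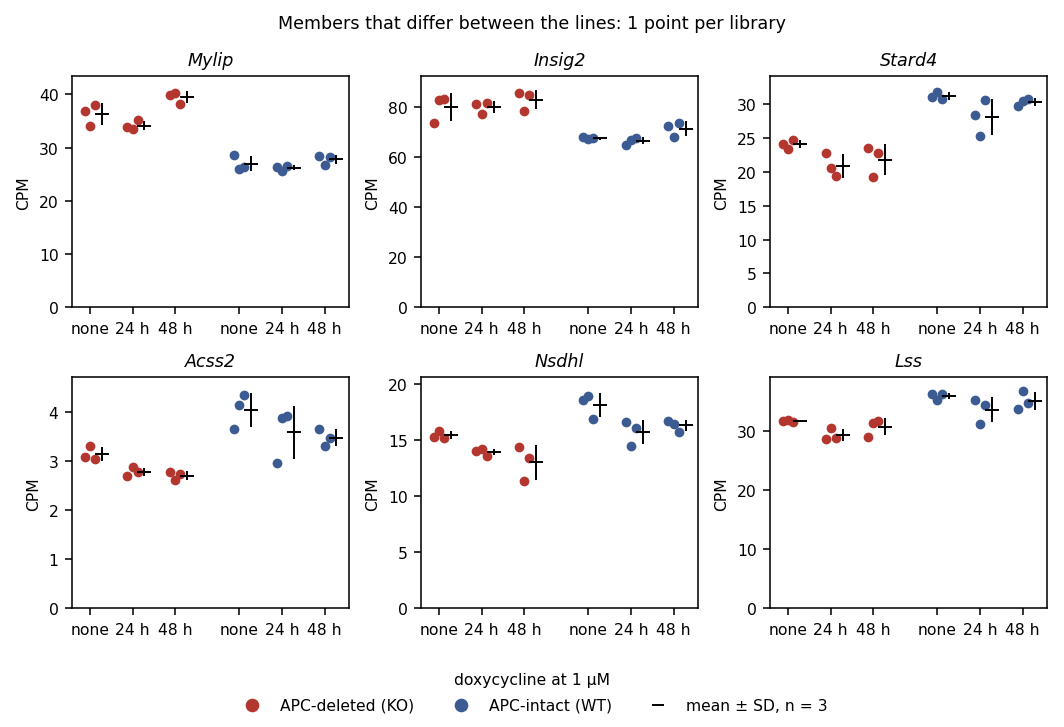
CPM of single libraries, with mean ± SD bars (n = 3), for genes that differ between the lines, in APC-deleted and APC-intact cells without doxycycline and at 24 and 48 h. Mylip and Insig2 are higher and Stard4 is lower in APC-deleted cells in each condition, and the APC-deleted and APC-intact libraries at 24 h come from different runs.

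These comparisons lie within a run, and Mylip, Insig2 and Stard4 at both times, Fdft1 untreated, and Fdps, Scd2, Msmo1 and Nsdhl at 48 h held when any 1 library was left out. Untreated, the call of Fdps ended without any 1 library other than APC-deleted replicate 3 (adjusted p up to 0.117), and that of Nsdhl without replicate 1 or 3 of APC-deleted or 1 or 2 of APC-intact cells (0.118). That of Lss ended without APC-deleted replicate 3 or APC-intact 1 or 3 (0.0619), that of Acss2 without APC-deleted 1 or 3 or APC-intact 2 or 3 (0.0878), and that of Scap without APC-deleted 3 or APC-intact 1 or 2 (0.0984). At 48 h that of Lss ended without APC-deleted replicate 1 or APC-intact replicate 2 (up to 0.0580) and that of Acss2 without APC-intact replicate 1 (0.0642). Without APC-deleted replicate 2, which stands apart, 14 of the 37 genes were called at 48 h in place of 9. Over all genes 2710 were then higher and 2501 lower, against 2678 and 2525 with it.

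The third question was whether the lines responded differently to doxycycline. None of the 37 genes was called for a difference of the 48 h response (APC-deleted minus APC-intact) or of the 24 h response by edgeR, where 0.0267 and 0.00666% of all genes were called, and 0 were called by DESeq2. At an unadjusted p below 0.05 there were 2 and 0 members. The 2 were Scd2, whose fall at 48 h was larger in APC-deleted cells by −0.23 ± 0.074 (95% interval −0.38 to −0.071, unadjusted p = 0.00657, adjusted p = 0.508), and Apoe (0.64 ± 0.28, adjusted p = 0.668). For Fads2 the difference was 0.033 at 48 h (95% interval −0.13 to 0.19) and 0.10 at 24 h (−0.058 to 0.26), and for Fdps −0.15 (−0.34 to 0.051) and 0.024 (−0.17 to 0.22). The falls of Insig1 at 24 h differed by 0.055 (−0.12 to 0.23). The run cancels in the 48 h difference and not in the 24 h one.

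From 24 to 48 h in APC-deleted cells, within a run, 0 of the 37 genes were called by edgeR, where 0.52% of all genes were, with 3 at an unadjusted p below 0.05 and 2 called by DESeq2. Over all genes DESeq2 called 59 as higher and 128 as lower, against 11 and 67 by edgeR. At 48 h Insig1 was 67.9 ± 4.40 CPM, against 58.4 ± 3.93 at 24 h (0.22 ± 0.060, adjusted p = 0.144), and Mylip 39.5 ± 1.06, against 34.1 ± 0.836 (0.21 ± 0.053, adjusted p = 0.0993). Scd1 was 323 ± 32.4 CPM at 48 h, against 288 ± 3.59 at 24 h (0.17 ± 0.060, adjusted p = 0.347), with replicate 2 at 48 h the lowest of its group. Without that replicate edgeR also called 2, and over all genes 63 as higher and 127 as lower. The members' median was −0.017 on the log2 scale, against 0.0061 over all genes.

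Other genes of the same pathways, 17 of sterol handling and 22 of fatty acid handling with enough counts, were set beside the 37. For these genes no fit with a run term or with single libraries left out is given here. With doxycycline 2 and 3 of the 17 were higher at 24 and 48 h in APC-deleted cells (11.8 and 17.6%, against 2.08 and 4.52% of all genes) and 0 and 3 in APC-intact cells (0 and 17.6%, against 1.39 and 3.81%), with none lower. Numbers this small do not separate the 17 genes from all genes. The doxycycline comparisons that called any of the 17 all set different runs against each other. With Apc intact at 24 h, where the run is shared, 0 of the 17 were called. Erlin1 had 150 ± 7.45 CPM there, against 131 ± 5.37 untreated. Erlin1, a membrane protein that takes part in the sterol-driven breakdown of endoplasmic reticulum proteins, rose at 48 h in both lines and at 24 h in APC-deleted cells. It had 178 ± 14.7 CPM at 48 h, against 144 ± 4.51 untreated in APC-deleted cells (0.31 ± 0.057, adjusted p = 0.00157), and 161 ± 3.44 against 131 ± 5.37 in APC-intact cells (0.30 ± 0.057, adjusted p = 0.00157). Its partner Erlin2 rose at 48 h in both lines (0.23 ± 0.052 where Apc was deleted and 0.18 ± 0.052 where it was intact, adjusted p = 0.00656 and 0.0298). Soat1, which esterifies cholesterol, rose at 48 h in APC-intact cells (0.28 ± 0.064, adjusted p = 0.00699), and the exporter Abcg4, near 1 CPM or below, rose at 24 and 48 h in APC-deleted cells (1.01 and 1.18, adjusted p = 0.0249 and 0.00586).

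Few of the 22 other fatty acid genes were called with doxycycline, and counts this small cannot tell the list from all genes. At 24 and 48 h they were 1 and 1 in APC-deleted cells (4.55% each time, against 5.85 and 11% of all genes). In APC-intact cells they were 1 and 2 (4.55 and 9.09%, against 5.64 and 11.3%). Of the 22 genes 1 was lower at 24 h in APC-intact cells, the acyl-CoA synthetase Acsl3 (−0.27 ± 0.070, adjusted p = 0.0246), and 2 at 48 h, the mitochondrial citrate carrier Slc25a1 (−0.24 ± 0.059, adjusted p = 0.0134) and the reductase Tecr of chain elongation (−0.28 ± 0.060, adjusted p = 0.00465). In APC-deleted cells Slc25a1 was lower at 48 h (−0.25 ± 0.059, adjusted p = 0.0109) and Acsl6 higher at 24 h (0.16 ± 0.046, adjusted p = 0.049). Between the lines 6 of the 17 and 7 of the 22 were higher and 1 and 3 lower in APC-deleted cells untreated, and 5 and 6 were higher and 1 and 1 lower at 48 h. In all 41.2 and 45.5% of these lists were called untreated, against 27.3% of all genes, and 35.3 and 31.8% at 48 h, against 34.7%. Mbtps2, the site-2 protease that frees the SREBP factors from the membrane, had 104, 111 and 107 CPM in untreated APC-deleted cells, against 64.5, 64.1 and 64.0 in APC-intact cells (0.74 ± 0.10, adjusted p = 2.12e-05). At 48 h it had 141, 97.2 and 126 against 73.4, 77.2 and 79.2 (0.66 ± 0.10, adjusted p = 5.74e-05). The acyl-CoA synthetase Acsl6 was higher by 0.57 ± 0.047 untreated and 0.57 ± 0.047 at 48 h (adjusted p = 1.05e-08 and 1.20e-08). Npc2 and Lipa, which free cholesterol in lysosomes, were higher by 0.33 and 0.30 untreated (adjusted p = 0.000284 and 0.000472). The sterol carrier Stard5 was lower, by −0.25 untreated and −0.42 at 48 h (adjusted p = 0.000689 and 1.59e-06).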

How the data were processed

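RNA sequencing gave 18 libraries, grouped by their labels into 6 groups of 3. The authors deposited counts as whole numbers for each gene, made with STAR and HTSeq on mm10 per the submitters' processing notes; versions, annotation release and use of strand are not given in the sources used here. RPKM values deposited beside the counts equal the count divided by exon length and by the file total, and served only to compare levels between genes. Between 22.9 and 25.5% of a file's total lay in entries without a gene, which were left out of library sizes.

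Genes kept by filterByExpr were tested in R 4.3.3 with the robust quasi-likelihood fit of edgeR 4.0.16 (glmQLFit, glmQLFTest) on counts with TMM factors, with each of the 6 groups as a coefficient, and calls used a Benjamini-Hochberg adjusted p below 0.05 over the 15006 genes tested. Values are CPM from gene counts and TMM factors. Fold changes are log2 ± SE with n = 3 per group, and intervals are at 95%, covering the spread between these libraries only. The common biological coefficient of variation was 8.33%, and replicates differed by more than sampling noise. The steps were tested on simulated counts with known changes.

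The 37 genes, the other lists and the tests were chosen with earlier results of these data known. Values in each library are given for the called genes of smallest adjusted p (8 in comparisons within a run, 4 in others), and the 5 regulators were named whatever their values; up to 4 other pathway genes were named per comparison. Alternatives were DESeq2 1.42.0, DESeq-style factors, no filter, a replicate block, a run term, only the groups compared, and leaving out each library; leaving out APC-deleted replicate 2 at 48 h and APC-intact replicate 1 at 24 h together was added after the data were seen. Overlaps and near copies (at least 95% identity over 300 bases) were taken from GENCODE M21, and promoter windows from RefSeq. The comparison of the lines at 24 h and that of 48 with 24 h in APC-intact cells set 1 run against the other and were not analysed here. Some genes of these pathways are not reported here.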

Additional observations from a re-analysis of the deposited data

How the results depend on the processing

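The 56 calls of single genes held in every alternative in 23 cases, among them Fads2, Scd2 and Fdps in all 4 doxycycline comparisons and Mylip, Stard4 and Insig2 in both comparisons of the lines; 33 were lost in at least 1 and 0 reversed. Counts of called genes (of 37) moved by over 1.5 times as follows, and the cause was not tested. With only the groups compared, 5 were called at 24 h in APC-intact cells in place of 10, 16 at 24 h in APC-deleted cells in place of 5 and 4 at 48 h in place of 12. Over all genes this setting called 60 as higher and 199 as lower at 24 h in APC-intact cells, against 208 and 638. In APC-deleted cells it called 1184 and 1272 at 24 h, against 312 and 566, and 134 and 288 at 48 h, against 679 and 974. With a run term the counts were 4 at 48 h in APC-intact cells in place of 10, 10 and 4 at 24 and 48 h in APC-deleted cells, and 15 between the lines at 48 h in place of 9. Over all genes the run term gave 61 higher and 286 lower at 48 h in either line. The main fit gave 572 and 1131 in APC-intact and 679 and 974 in APC-deleted cells. At 24 h in APC-deleted cells the run term gave 304 and 688, and between the lines 3287 and 3314, against 2678 and 2525 at 48 h. DESeq2 called 10 at 24 h in APC-deleted cells and 2 in place of 0 between 48 and 24 h in those cells. Its calls over all genes were 553 higher and 835 lower at 24 h, and 59 and 128 between 48 and 24 h. Without APC-deleted replicate 2 at 48 h and APC-intact replicate 1 at 24 h, chosen after seeing the data, 15 were called between the lines at 48 h and 2 between 48 and 24 h. Over all genes that setting gave 2657 higher and 2677 lower between the lines, and 60 and 165 between 48 and 24 h. Leaving out 1 library gave 5 to 8 between the untreated lines, lowest without APC-intact replicate 2 or APC-deleted replicate 3 and 6 without APC-intact replicate 1 or 3 or APC-deleted replicate 1. In APC-intact cells it gave 5 to 10 at 24 h (5 without untreated replicate 1 or 2, 6 without treated replicate 1) and 5 to 8 at 48 h (5 without untreated replicate 1 or 2 or treated replicate 1 or 3). In APC-deleted cells it gave 4 to 5 at 24 h and 5 to 12 at 48 h (5 without untreated replicate 1 or 2, 7 without replicate 3). It gave 8 to 14 between the lines at 48 h and 0 to 2 between 48 and 24 h, the highest without APC-deleted replicate 2 at 48 h, and 0 for both differences of response. Calls over all genes also moved. Between the untreated lines they were 1671 higher and 1508 lower without APC-intact replicate 2, against 2014 and 2076. Without untreated replicate 1 they were 89 and 279 at 24 h in APC-intact cells, against 208 and 638. The same omission gave 300 and 565 at 48 h in APC-deleted cells, against 679 and 974. Replicate numbers were not taken to pair the libraries: the correlation of deviations of same-numbered libraries ran from −0.088 to 0.24, with 4 of 45 pairs over 0.1, 3 of them between APC-deleted libraries at 48 h and APC-intact ones at 24 h, groups not compared here. As a hint of pairing from the data, 12 of 18 libraries correlated best with their own number. With the replicate as a block 10 genes were called between the untreated lines, 11 and 10 at 24 and 48 h in APC-intact cells, 6 and 13 in APC-deleted cells, 11 between the lines at 48 h and 0 elsewhere. Over all genes the block gave 2121 higher and 2140 lower between the untreated lines, against 2014 and 2076. With Apc intact it gave 261 and 704 at 24 h, against 208 and 638. At 48 h these were 841 and 1332, against 572 and 1131. With Apc deleted they were 374 and 614 at 24 h, against 312 and 566. At 48 h these were 759 and 1042, against 679 and 974. Between the lines at 48 h they were 2759 and 2614, against 2678 and 2525.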
